A study of Mus musculus with 60 samples.

Results

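Keratin genes encode the intermediate filament proteins of epithelial cells. The members were the genes on the array whose RefSeq symbol was Krt followed by a number and an optional letter, which leaves out the keratin-associated proteins of hair. The array carried 53 of the 54 mouse keratin genes named so in RefSeq, out of 20018 named genes in all, and each was read from its brightest probe. Krt83 had no probe. Their transcripts were measured in the lung, liver and forestomach of adult male Muta Mouse, a transgenic strain that carries a bacterial reporter gene for mutation, in animals about 10 weeks old. Mice received benzo(ghi)perylene (BghiP), a polycyclic aromatic hydrocarbon, in olive oil by oral gavage for 28 days, and tissues were taken 72 h after the final dose. Controls, D0, were given olive oil alone, and the treated groups D1, D2 and D3 were given 6.25, 12.5 and 25 mg per kg body weight each day. Each group held 5 mice, and each of the 20 mice gave all 3 tissues, for 60 arrays. On each array the tissue RNA (Cy5) was hybridised against a common reference RNA pooled from mouse cell lines (Cy3). Values below are log2 ratios of tissue over reference. A ratio compares one gene between tissues or mice, and says nothing of its level against another gene. RNA came from a slice of whole tissue, so fewer cells of a type and less RNA per cell cannot be told apart.

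Keratins work as pairs. A type I (acidic) chain joins a type II (basic) chain to make the filament, and the pair in use marks the kind of epithelium. Krt5 with Krt14 serves the dividing basal layer of stratified epithelia, Krt1 with Krt10 the upper layers of cornifying epithelium such as skin, Krt4 with Krt13 the lining of mouth and gullet, Krt6 with Krt16 or Krt17 stressed or healing epithelium, and Krt8 with Krt18 the single-layered epithelia of liver, gut and airways. The mouse forestomach is lined by a cornified squamous epithelium and borders the glandular stomach. In the RefSeq gene order the type I genes lie together on chromosome 11 and the type II genes on chromosome 15, and Krt18, a type I gene, lies beside Krt8 on chromosome 15.

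RefSeq start-site windows (GRCm38.p6, 250 bases before to 50 after the start) were held for 36 keratin genes in 37 windows. The TATA box motif TATAAA, searched on both strands, was in 51.4% of the keratin windows against 13.6% of all 32817 windows. On the sense strand with its first base 36 to 24 bases before the start, it was in 12 of the 37 keratin windows (32.4%) against 1.8% of all. The GC box motif GGGCGG was in 5.41% of the keratin windows against 35.6% of all, and the AP-1 motif TGANTCA in 5.41% against 7.81%. These shares describe letters in a window and not factor binding. The windows of 6 keratins on which the results below turn are shown 5′ to 3′ on the gene's own strand, with every match to one of these motifs on either strand in capitals. Krt13 (chr11:100121517-100121816, minus strand) and Krt76 (chr15:101892871-101893170, minus strand) belong to the squamous lining, Krt7 (chr15:101412153-101412452, plus strand) was lower in forestomach than in lung by the widest margin, and Krt8 (chr15:102004293-102004592, minus strand), Krt18 (chr15:102027966-102028265, plus strand) and Krt20 (chr11:99438104-99438403, minus strand) varied together between forestomach mice.
Krt13: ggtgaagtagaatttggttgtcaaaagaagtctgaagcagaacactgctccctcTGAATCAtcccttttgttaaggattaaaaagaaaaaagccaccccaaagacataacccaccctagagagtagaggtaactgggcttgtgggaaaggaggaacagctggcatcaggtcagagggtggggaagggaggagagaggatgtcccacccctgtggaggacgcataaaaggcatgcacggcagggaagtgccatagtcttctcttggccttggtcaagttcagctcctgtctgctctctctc
Krt76: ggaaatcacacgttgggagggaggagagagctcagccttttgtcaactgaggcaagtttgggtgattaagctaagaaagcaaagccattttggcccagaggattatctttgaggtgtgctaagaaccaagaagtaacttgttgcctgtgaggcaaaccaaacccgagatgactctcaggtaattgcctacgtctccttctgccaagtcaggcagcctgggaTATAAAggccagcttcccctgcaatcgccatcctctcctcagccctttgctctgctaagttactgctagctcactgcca
Krt7: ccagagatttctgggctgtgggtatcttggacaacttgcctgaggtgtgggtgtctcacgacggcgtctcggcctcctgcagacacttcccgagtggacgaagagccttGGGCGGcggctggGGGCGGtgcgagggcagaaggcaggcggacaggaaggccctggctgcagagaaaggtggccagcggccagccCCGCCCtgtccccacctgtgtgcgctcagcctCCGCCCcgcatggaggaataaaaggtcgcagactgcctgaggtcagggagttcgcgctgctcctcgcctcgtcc
Krt8: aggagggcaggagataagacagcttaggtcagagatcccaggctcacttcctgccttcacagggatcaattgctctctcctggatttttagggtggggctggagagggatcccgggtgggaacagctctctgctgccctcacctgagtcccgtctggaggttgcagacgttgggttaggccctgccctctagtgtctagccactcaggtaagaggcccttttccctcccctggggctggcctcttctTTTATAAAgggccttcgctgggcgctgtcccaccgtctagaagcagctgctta
Krt18: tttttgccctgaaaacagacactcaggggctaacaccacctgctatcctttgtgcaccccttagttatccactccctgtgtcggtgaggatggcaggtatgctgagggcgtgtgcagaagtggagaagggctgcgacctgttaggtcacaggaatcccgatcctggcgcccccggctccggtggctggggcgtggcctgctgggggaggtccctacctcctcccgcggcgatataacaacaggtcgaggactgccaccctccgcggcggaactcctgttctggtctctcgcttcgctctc
Krt20: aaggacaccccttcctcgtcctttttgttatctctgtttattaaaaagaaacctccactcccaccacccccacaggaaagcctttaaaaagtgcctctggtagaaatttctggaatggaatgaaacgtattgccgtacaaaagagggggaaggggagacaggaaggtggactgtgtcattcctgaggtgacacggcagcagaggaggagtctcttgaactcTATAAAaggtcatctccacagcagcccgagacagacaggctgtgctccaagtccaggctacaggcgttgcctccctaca
The Krt76 and Krt20 windows each hold TATAAA with its first base 29 bases before the start. The Krt8 window holds it in both directions in one overlapping run 3 bases before the start, and the Krt7 window holds 4 GC boxes. Krt18 held none of the 3 motifs.

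Forestomach had the most keratins. A probe was counted as measured in a tissue when its Cy5 signal was well above background on at least 5 of the 20 arrays, and on this count 34 of the 53 keratins were measured in forestomach, 21 in lung and 19 in liver, and 10 were above background on none of the 60 arrays. The measured shares in forestomach, lung and liver were 64.2, 39.6 and 35.8% of keratins, beside 45, 55.7 and 46.5% of all probes. In all, 35 keratins (66.0%) passed in some tissue, beside 59.7% of all probes. Measured in forestomach alone were 14 keratins (26.4%), beside 1.38% of all probes. The unmeasured keratins were mostly those of hair and of the inner root sheath of the hair follicle: of 14 hair keratins on the array 6 passed in some tissue (Krt31, Krt32, Krt81, Krt82, Krt84 and Krt86), and of 9 keratins of the inner root sheath and companion layer 2 passed (Krt72 and Krt73).

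Arrays of a tissue were checked against marker genes of the cell types they could hold. In liver the 5 hepatocyte markers, and in lung the 5 airway and alveolar markers, were above background on all 20 arrays. In forestomach 8 of 10 squamous markers were, but 4 of the 10 were so in lung and in liver as well. Tgm3 and Trp63 had lower medians in forestomach (0.47 and 0.03) than in liver (0.71 and 0.64) or lung (0.74 and 0.44). The other squamous markers had higher ones. Individual arrays stood apart. In lung D0 mouse 1 the mean log2 ratio of the squamous marker list was 2.47 (at most -0.06 in the other 19 lungs) and that of the skeletal muscle list 4.75 (at most 0.45), so the squamous keratin results against D0 lung are given without this mouse as well where it moves them. In forestomach the mean of 9 glandular stomach markers ran from 0.23 to 7.88 between mice. The hepatocyte list ran from 0.03 to 5.41 over the forestomachs, with a median of 2.92. It reached 5.05 in lung D3 mouse 20 (at most 1.47 in the other lungs), and the airway and alveolar list 4.70 in forestomach D0 mouse 2. The share of probes above background ran from 34.9 to 58.6% in lung, 36.3 to 48.3% in liver and 21.3 to 53.3% in forestomach arrays. Lung and forestomach arrays shared slides 1 to 5 with every dose on each, and liver arrays were on slides of their own.

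The first comparison asked how the vehicle-treated tissues differ. Keratins of squamous epithelium were far higher in D0 forestomach than in D0 liver or lung, among them the basal keratins Krt5, Krt14 and Krt15, the upper-layer keratin Krt10, the gullet keratin Krt13 and the stress keratins Krt6b and Krt16, which were also measured in lung or liver. Krt1, Krt4, Krt76, Krt78, Krt17 and Krt6a were called higher as well but were measured in forestomach alone. The background filter largely fixed their direction. Krt13 passed outside forestomach only in lung, on the fewest arrays the filter allows, with mouse 1 among them. A keratin was called when the adjusted p (limma, Benjamini-Hochberg over all 33255 probes) was 0.05 or less and the difference 1.5-fold or more. Against liver, 25 of 35 keratins were higher and 2 lower, where 21.0% of all probes were higher and 18.2% lower. Against lung, 21 were higher and 2 lower, where 14.5% of all probes were higher and 18.8% lower, and without mouse 1 the counts against lung were again 21 and 2. These counts hold 14 keratins that entered the test through forestomach alone and whose direction that filter largely fixed. In each comparison 13 of them are among the higher calls, where 58.5% (against liver) and 59.9% (against lung) of all probes measured in forestomach alone were called higher. The counts over all 35 are therefore no measure of the family against other genes. Among the 19 keratins measured in every tissue, 11 were higher and 2 lower than in liver, where 23.9% of such probes were higher and 21.8% lower, and 7 were higher and 2 lower than in lung, where 17.0% were higher and 20.8% lower. The median difference of these 19 was 2.75 against liver and 0.22 against lung, beside -0.01 and 0.00128 for all probes measured in every tissue. Between lung and liver 8 keratins were higher in lung and 1 lower, where 25.4% of probes were higher and 19.0% lower, and the median keratin difference was 0.01 beside 0.06 for all probes. With the scanner's processed signals this last split was 10 higher and 6 lower.

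**Figure D1:**
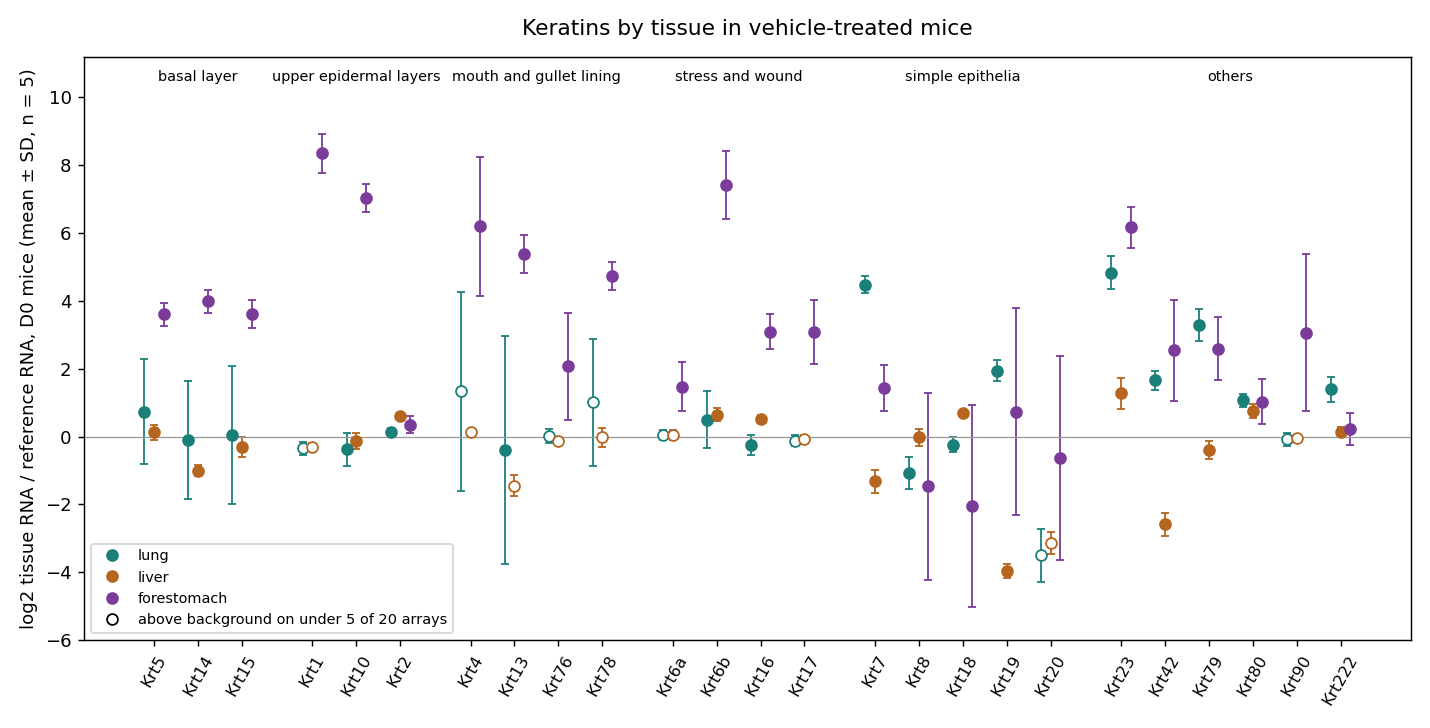
Log2 ratio of tissue RNA over reference RNA for 25 keratins in vehicle-treated mice, as mean ± SD over 5 mice in lung, liver and forestomach, grouped by role. Open circles are tissues in which the probe was above background on fewer than 5 of 20 arrays. Forestomach lies above lung and liver for Krt1, Krt10 and Krt6b by more than 6 log2 units, and its SD is over 2 for Krt4, Krt8, Krt18, Krt19, Krt20 and Krt90.

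The basal-layer keratins Krt5, Krt14 and Krt15 were called higher in forestomach than in liver and in lung. Of all probes measured in every tissue, 23.9% were higher than in liver and 17.0% higher than in lung. Krt5, the type II basal keratin, measured 3.30, 3.65, 3.75, 3.26 and 4.08 in D0 forestomach mice 1 to 5. In lung it measured 3.46 in mouse 1 and between -0.15 and 0.43 in the others, and in liver it lay between -0.08 and 0.45. The forestomach values overlapped those of the liver nowhere and those of the lung only through mouse 1. The difference was 3.48 ± 0.33 (SE) against liver (adjusted p = 1.61e-13) and 2.87 ± 0.33 against lung (adjusted p = 1.62e-10), or 3.63 ± 0.22 against lung with mouse 1 left out of every tissue. A second, dimmer Krt5 probe gave 2.05 ± 0.55 (adjusted p = 0.00131) and 1.97 ± 0.55 (adjusted p = 0.00232). Its type I partner Krt14 measured between 3.63 and 4.46 in forestomach and between -1.16 and -0.72 in liver. The Krt14 difference was 4.99 ± 0.35 against liver and 4.09 ± 0.35 against lung, the latter 4.92 ± 0.20 without mouse 1. Krt15, another type I basal keratin, was higher by 3.91 ± 0.41 and 3.55 ± 0.41, the latter 4.43 ± 0.25 without mouse 1.

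Among the keratins of the upper epidermal layers, Krt1 and Krt10 were called higher in forestomach and Krt2 was not. Krt1, which marks cells committed to cornify, measured 8.29, 7.43, 8.38, 8.71 and 8.95 in D0 forestomach and was not well above background on any D0 lung or liver array, where its ratios lay between -0.55 and -0.03. The groups were far apart. Krt1 passed the background filter through forestomach alone, so its values are a description. The ratio was higher by 8.65 ± 0.20 against liver (adjusted p = 1.18e-39) and by 8.70 ± 0.20 against lung (adjusted p = 2.41e-38). In the Cy5 channel alone Krt1 was at least 1325-fold higher than in liver and at least 1425-fold higher than in lung. Such bounds set the mean of the brighter group against, on each dim array, the higher of the probe's own signal and the lowest signal counted as well above background. They rest on the Cy5 channel after between-array scaling and are open to dye bias, since no dyes were swapped. They can exceed the fold of the ratio, which the adjusted p tests, where the Cy3 signal at the spot is also brighter. An adjusted p printed beside such a bound, here or below, is that of the ratio. Krt10, the partner of Krt1, measured between 6.65 and 7.71 in forestomach, from -0.84 to 0.42 in lung and from -0.44 to 0.12 in liver. It was higher by 7.17 ± 0.20 against liver (adjusted p = 5.62e-36) and by 7.42 ± 0.20 against lung (7.65 ± 0.21 without mouse 1). A second Krt10 probe gave 5.12 ± 0.20 and 4.51 ± 0.20. Krt2, the late-differentiation keratin of skin, differed from liver by -0.25 ± 0.14 (adjusted p = 0.116) and from lung by 0.21 ± 0.14 (adjusted p = 0.211). With the scanner's processed signals it was called lower than in liver, at -0.86 ± 0.32 in forestomach (adjusted p = 0.0158) and -1.46 ± 0.32 in lung (adjusted p = 6.44e-05). Krt77 passed the background filter nowhere.

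Of the keratins of the mouth and gullet lining, Krt13 was the one measured outside forestomach. It passed in lung on 5 of the 20 arrays, the fewest the filter allows, and mouse 1 was among them. Without that array it would have passed through forestomach alone. Krt4, Krt76 and Krt78 passed the background filter through forestomach alone, so their values are a description and no count is drawn from them. Krt13 measured 5.21, 4.76, 5.32, 5.37 and 6.30 in the 5 D0 forestomachs and between -1.71 and -0.92 in liver, where no D0 array was well above background. The ratio was higher by 6.85 ± 0.65 (adjusted p = 1.55e-13), and the Cy5 signal was at least 418-fold higher in forestomach. Against lung its difference was 5.79 ± 0.65, or 7.32 ± 0.32 without mouse 1. Krt4, its type II partner, was less even between mice, at 6.82, 3.15, 5.16, 7.69 and 8.17. Its ratio was higher than in liver by 6.06 ± 0.74 (adjusted p = 4.19e-10) and its Cy5 signal at least 92.7-fold higher, and its ratio was higher than in lung by 4.87 ± 0.74. In D0 lung it was above background in mouse 1 alone. Without this mouse the Cy5 signal was at least 82.1-fold higher in forestomach (adjusted p = 7.59e-12 for the ratio). Krt78 measured between 4.25 and 5.38 and had a ratio higher by 4.76 ± 0.37 against liver and 3.73 ± 0.37 against lung, where 1 of 5 D0 arrays was above background in each. The lung array was that of mouse 1. Without it the Cy5 signal was at least 402-fold higher in forestomach than in lung (adjusted p = 4.62e-26 for the ratio). Krt76, a keratin of the hard palate, measured 3.12, 0.29, 0.63, 2.41 and 3.92, was above background on 3 of these 5 arrays, and was at least 3.19-fold higher than in liver (adjusted p = 7.81e-05). Mice 2 and 3 had the lowest Krt4 and Krt76.

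The stress and wound keratins Krt6b and Krt16, measured in every tissue, were higher in the vehicle-treated forestomach. Krt17 and Krt6a passed the background filter through forestomach alone, and their values are a description. Krt6b measured 6.88, 6.43, 6.80, 8.65 and 8.33 there, at most 1.95 in lung and at most 0.78 in liver, a difference of 6.78 ± 0.42 against liver (adjusted p = 2.09e-20) and 6.92 ± 0.42 against lung (adjusted p = 5.45e-20, or 7.42 ± 0.45 without mouse 1). Krt17, which was not well above background on any D0 lung or liver array, had a ratio higher by 3.15 ± 0.41 against liver (adjusted p = 2.43e-09) and 3.20 ± 0.41 against lung (adjusted p = 3.13e-09). Its Cy5 signal was at least 13.1-fold and 14.3-fold higher. Krt16 was higher by 2.56 ± 0.47 against liver and 3.35 ± 0.47 against lung. Krt6a was above background on 4 of 5 D0 forestomach arrays, at least 2.60-fold higher than in liver (adjusted p = 0.012) and 2.83-fold than in lung (adjusted p = 0.0145). The Krt6a ratio differences were 1.43 against liver and 1.42 against lung. Both calls were lost without mouse 4 (1.28 and 1.29, adjusted p = 0.0567 and 0.0619). That against lung was also lost without mouse 2 (1.26, adjusted p = 0.0628). Krt6a and Krt6b are near-identical copies whose transcripts one probe may not separate.

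At some keratin spots the reference channel differed too, although the same reference RNA was used on every array. Cy3 was brighter by 1 log2 unit or more in D0 forestomach than in D0 liver at 8 of the 35 keratins (22.9%: Krt1, Krt5, Krt10, Krt13, Krt14, Krt15, Krt23 and Krt78), and at 0.457% of all probes. At Krt5 the Cy3 difference was 6.34 and the Cy5 difference 9.84, at Krt14 3.18 and 8.19, at Krt78 3.93 and 8.71, and at Krt1 1.79 and 10.45. Krt6b, with a Cy5 difference of 6.71, showed -0.08 in Cy3. In lung, the Krt5 Cy3 signal (log2, less the median of its array) was 4.59 in D0 mouse 1 and at most 0.22 in the other 19. The log2 ratios at these 8 spots are smaller than the Cy5 differences by that amount, and the cause was not tested.

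The simple-epithelial keratins did not follow this pattern. Krt7, a keratin of ducts, airways and mesothelium, was highest in lung, at 4.16, 4.48, 4.36, 4.82 and 4.55 in the 5 D0 lungs. Forestomach values ran from 0.58 to 2.29 and liver values from -1.76 to -0.95, with no overlap between tissues. Lung exceeded liver by 5.80 ± 0.25 (adjusted p = 6.33e-27), the forestomach minus lung difference was -3.05 ± 0.25 (adjusted p = 6.01e-15) and forestomach exceeded liver by 2.75 ± 0.25 (adjusted p = 6.7e-14). The mean of 5 mesothelial markers ran from -0.82 to 1.19 in lung, -1.48 to 0.84 in forestomach and -2.42 to -1.88 in liver arrays, and its part in the Krt7 values was not tested. Krt19, a keratin of bile ducts and many simple epithelia, was lowest in liver, between -4.23 and -3.71, and lay between 1.58 and 2.45 in lung, 5.91 ± 0.98 above liver (adjusted p = 6.66e-07). In forestomach it was 4.70 ± 0.98 above liver (adjusted p = 4.78e-05), with values from -2.12 to 4.33. Krt8 and Krt18, the pair that hepatocytes use, were higher in every D0 liver than in any D0 lung, while D0 forestomach mice 2 and 3 lay above the livers in both (1.96 and 1.05 in Krt8, 1.17 and 1.23 in Krt18). Krt18 lay between 0.59 and 0.85 in liver against -0.50 to 0.09 in lung. Krt8 ran from -0.29 to 0.29 in liver against -1.73 to -0.45 in lung. The lung minus liver difference was -0.93 ± 0.93 for Krt18 (adjusted p = 0.395) and -1.05 ± 0.90 for Krt8 (adjusted p = 0.316) with the spread shared over all groups, which holds the wide forestomach values. With the D0 lung and D0 liver arrays fitted alone, both were called, at -0.93 ± 0.12 (adjusted p = 2.07e-05) and -1.05 ± 0.21 (adjusted p = 0.000875).

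Of the other keratins, 3 were high in lung and forestomach and low in liver. Krt79, a keratin of hair follicle ducts in skin, was 3.69 ± 0.33 higher in lung than in liver and 3.00 ± 0.33 higher in forestomach than in liver. Krt23 was 3.56 ± 0.33 and 4.90 ± 0.33 higher, and Krt42 4.24 ± 0.47 and 5.13 ± 0.47 higher. Krt80 differed in none of the tissue comparisons, with differences between -0.03 and 0.30 and adjusted p from 0.17 to 0.913. Krt222, a keratin-like gene, was higher in lung than in liver by 1.25 ± 0.17 (adjusted p = 6.83e-09), and its forestomach minus lung difference was -1.16 ± 0.17 (adjusted p = 8.78e-08). Averaging its brightest probe with its second, dimmer probe brought these differences to 0.58 ± 0.10 and -0.53 ± 0.10, which no longer met the 1.5-fold limit. Krt14 (0.90 ± 0.35) and Krt78 (1.03 ± 0.37) were also called higher in lung than in liver, and both calls rested on lung mouse 1: without it the differences were 0.11 ± 0.20 (adjusted p = 0.68) and 0.24 ± 0.19 (adjusted p = 0.282), and 7 keratins were called in place of 9.

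Hair-type keratins were measured in forestomach too. Krt84, Krt72, Krt32, Krt82, Krt90 and Krt12 passed the background filter through forestomach alone, so their values below are a description. Krt84, a keratin that the tongue's filiform papillae also make, measured 2.70, 1.35, 2.07, 3.58 and 4.14 in D0 forestomach and was not well above background on any D0 liver or lung array, at least 7.18-fold lower in liver (adjusted p = 1.86e-10) and 7.57-fold lower in lung (adjusted p = 4e-10). Krt72, of the inner root sheath, was above background on 4 of the 5 arrays and at least 3.35-fold higher in forestomach than in liver (adjusted p = 3.56e-05). Krt32 and Krt82, each above background on 3 of the 5, were at least 2.22-fold and 1.83-fold higher than in liver (adjusted p = 0.000154 and 0.00103). Krt31 went the other way, between 0.83 and 1.45 in liver against 0.12 to 0.71 in forestomach and -0.10 to 0.13 in lung. Its difference from liver was -0.72 ± 0.11 in forestomach (adjusted p = 2e-07) and -1.09 ± 0.11 in lung (adjusted p = 1.97e-12). The 5 hair follicle markers had a mean between -0.80 and -0.08 in forestomach. Krt90, named here after its values were seen, measured 3.64, 0.47, 0.82, 4.82 and 5.55 in the 5 D0 forestomachs, was at least 4.75-fold higher than in liver (adjusted p = 1.8e-05), was above background on 4 of the 5 arrays, and was again lowest in mice 2 and 3. Krt12, likewise, was above background on 2 of the 5, at least 1.14-fold higher than in liver (adjusted p = 4.26e-05). The Krt12 call was lost without mouse 5 (a ratio difference of 0.55), in the D1, D2 and D3 mice (0.40, 0.45 and 0.57) and with the mean of all its probes (0.47), each under 1.5-fold. Krt9, Krt73, Krt81 and Krt86 were tested and called in no tissue comparison. With the scanner's processed signals Krt81 was called, at 2.48 ± 0.42 for forestomach minus liver (adjusted p = 1.29e-06) and 2.06 ± 0.42 for lung minus liver (adjusted p = 2.9e-05), and Krt73 at -0.79 ± 0.24 for lung minus liver (adjusted p = 0.00389).

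Treated mice were compared in the same way; they share no arrays with the D0 mice but share the fit and the background filter, which was set over all 20 arrays of a tissue. Of the 19 keratins measured in every tissue, 11 were higher in forestomach than in liver at all 4 doses, where 18.4% of such probes were. Likewise 7 of the 19 were higher in forestomach than in lung at all 4 doses, where 12.2% of such probes were. At all 4 doses 6 were higher in lung than in liver (Krt7, Krt19, Krt23, Krt42, Krt79 and Krt222), where 22.5% of all probes were. Lower at all 4 doses were Krt31 against liver in both lung and forestomach, and Krt7 and Krt222 in forestomach against lung (13.5, 16.4 and 14.2% of all probes were lower at all 4 doses in forestomach against liver, lung against liver and forestomach against lung). No keratin was called in opposite directions at 2 doses.

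Genes that anchor or regulate keratin filaments were read beside them. Genes measured in forestomach alone, among them Dsg3 and Dsc3, were not taken out of the counts below. These counts are therefore no measure of the lists against other genes. Of 16 genes of desmosomes and hemidesmosomes, the junctions in which keratin filaments end, 12 were higher and 3 lower in D0 forestomach than in liver, and 9 were higher and 4 lower than in lung, where the shares of all probes were 21.0 and 18.2% against liver and 14.5 and 18.8% against lung. Pkp1, a desmosome plaque protein of stratified epithelia, was higher by 5.89 ± 0.55 against liver, and Dsg3 and Dsc3, the squamous desmosomal cadherins, by 2.03 ± 0.34 and 2.59 ± 0.46. Dsg2, Dsc2 and Pkp2, which serve simple epithelia, were lower than in liver, with differences of -3.64 ± 0.36, -1.96 ± 0.56 and -2.20 ± 0.34. Of 10 transcription factors of epithelial differentiation, 9 were higher than in liver, among them Klf4 (5.66 ± 0.16) and Grhl3 (5.74 ± 0.57). The brightest Trp63 probe was the exception, at -0.67 ± 0.12 (adjusted p = 3.58e-06), with a median of 0.03 over the 20 forestomachs beside 0.44 in lung and 0.64 in liver. Which Trp63 transcripts or strand this probe reads was not tested, so the value stands for the probe and not for the gene. Against lung 8 of the 10 were higher. Of the other intermediate filament genes, Des, the filament of muscle, was higher by 5.80 ± 0.37 against liver, and Vim, of mesenchymal cells, was higher by 2.90 ± 0.18 against liver and lower against lung, with a difference of -1.77 ± 0.18. Of the 10 squamous markers used above, 4 (Trp63, Dsg3, Dsc3 and Pkp1) are also on these lists.

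The simple-epithelial keratins divided the 20 forestomachs. Krt8 measured between -3.81 and -1.48 in 10 mice and between 0.94 and 3.28 in the other 10, with nothing between. Krt18 lay at most at -2.63 in the same 10 low mice and at least at -0.19 in the same 10 high mice, Krt19 at most at 0.41 and at least at 2.85, and Krt20, a keratin of gastric and intestinal surface cells, at most at 0.48 and at least at 2.07. Krt42 divided the mice likewise, at most at 1.88 against at least 3.06. For each of these 5 keratins, the 10 highest mice were mice 2 and 3 of D0, 7 to 10 of D1, 12 to 14 of D2 and 19 of D3. The mean of the 9 glandular stomach markers was also highest in these 10 mice, at 6.05 to 7.88 against 0.23 to 4.46 in the others, and its part in the keratin values was not tested. Krt7 did not divide the mice in this way (8 of its 10 highest were among these 10, with a gap of 0.004 below them). Of the squamous keratins, 5 of the 10 highest mice for Krt5, 5 for Krt14, 4 for Krt1, 4 for Krt13, 3 for Krt4 and 2 for Krt76 were among these 10.

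**Figure D2:**
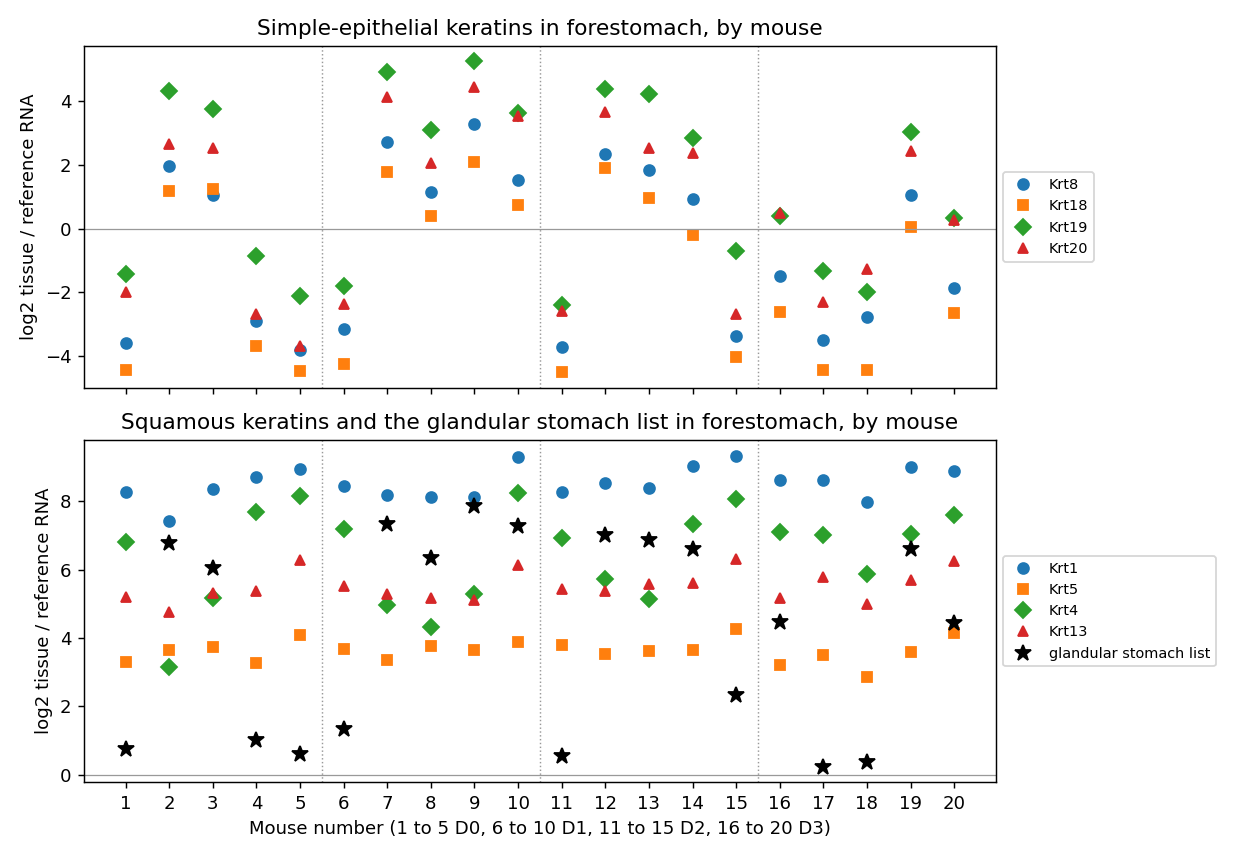
Log2 ratio of tissue over reference RNA in each of the 20 forestomach mice, with dotted lines between dose groups. Above, Krt8, Krt18, Krt19 and Krt20 are high in the same 10 mice (Krt8 from 0.94 to 3.28) and low in the others. Below, Krt1, Krt5, Krt4 and Krt13 with the mean of 9 glandular stomach markers (stars), which is 6.05 or more in those 10 mice.

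The D0 forestomach calls of Krt18 against liver and of Krt20 were lost when certain single mice were left out. Krt20 passed the background filter through forestomach alone, so its values are a description. In D0 mice it measured -2.0, 2.67, 2.54, -2.69 and -3.69. It was at least 5.4-fold higher than in liver (ratio difference 2.50 ± 1.01, adjusted p = 0.0298) and at least 6.57-fold higher than in lung (2.88 ± 1.01, adjusted p = 0.014), where no D0 array was well above background. These calls were lost without mouse 2 (1.81 ± 1.09 and 2.08 ± 1.09, adjusted p = 0.16 and 0.113) and without mouse 3 (1.66 ± 1.09 and 2.37 ± 1.09, adjusted p = 0.206 and 0.0648). Krt18 was called lower in forestomach than in liver (-2.73 ± 0.93, adjusted p = 0.0102). That call was lost without mouse 1, 4 or 5, whose values were the low ones. The differences were then -2.15, -2.32 and -2.13 (adjusted p = 0.0781, 0.0612 and 0.0759), so the size stayed near and the precision fell.

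Partner keratins moved together across the 20 forestomach arrays. Over 19 pair and tissue combinations, Krt6b with Krt17 gave Pearson r = 0.944 and Spearman rho = 0.925 (permutation p = 1e-05 each, the smallest 100000 resamples can give, adjusted p = 3.17e-05 and 3.8e-05), 0.904 without the 2 arrays farthest from the Krt6b median and 0.916 within slides. Krt6a with Krt16 gave r = 0.856 and rho = 0.883 (permutation p = 1e-05 each, adjusted p = 3.17e-05 and 3.8e-05), 0.808 without the 2 farthest and 0.841 within slides. Krt1 with Krt10 gave r = 0.816 and rho = 0.803 (permutation p = 1e-05 and 4e-05, adjusted p = 3.17e-05 and 0.000109), with 0.794 and 0.692. With the scanner's processed signals this r was 0.226. The Cy3 level at the Krt1 spot ran from -0.24 to 2.97 (log2, less the median of the array) over the forestomachs, against 7.43 to 9.34 for the ratio, and its part in this correlation was not tested. Krt4 with Krt13 gave r = 0.756 and rho = 0.731 (permutation p = 9e-05 and 0.00043, adjusted p = 0.000214 and 0.00102), with 0.69 in both checks. Krt5 with Krt14 gave r = 0.753 and rho = 0.638 (permutation p = 0.00014 and 0.00325, adjusted p = 0.000296 and 0.00515), 0.72 without the 2 farthest but 0.434 within slides. Krt5 with Krt15, both basal, gave r = 0.41 and rho = 0.322 (permutation p = 0.0723 and 0.167, adjusted p = 0.0859 and 0.198) and -0.44 within slides. The points share slides and the brightness of each array.

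**Figure D3:**
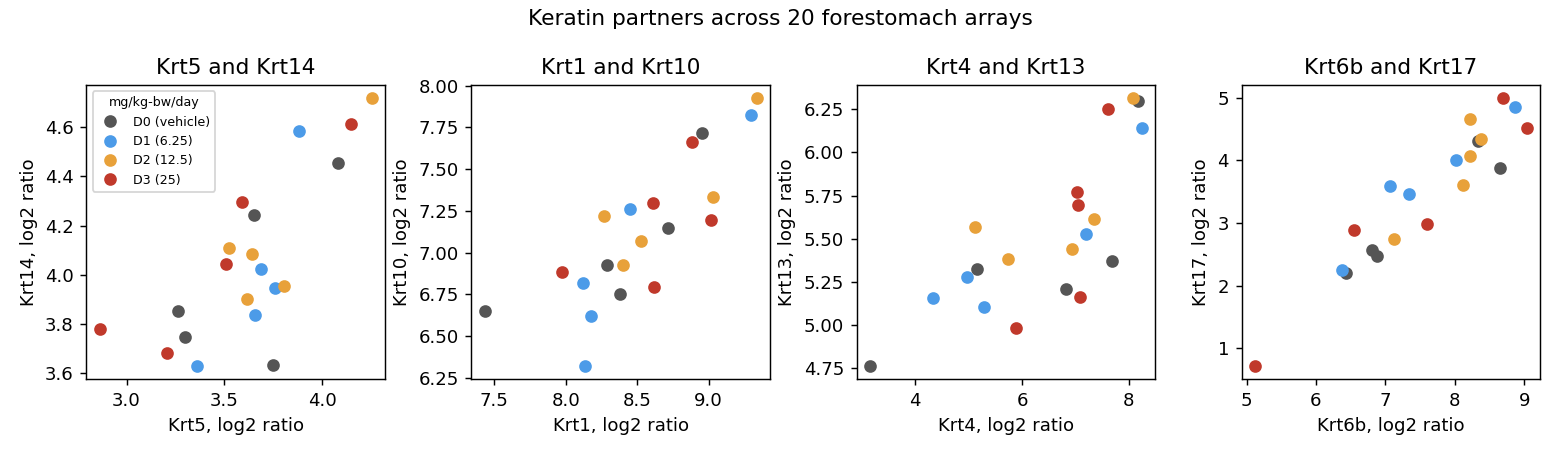
Log2 ratios of 4 keratin pairs in forestomach, 1 point per mouse, coloured by dose. Krt6b and Krt17 follow each other most closely (r = 0.944), and the doses are mixed along each cloud.

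Because Krt8, Krt18 and Krt19 split the forestomachs into separate clusters, no r over all 20 is given for them. Within the 10 mice below the gap in Krt8, Krt8 with Krt18 gave r = 0.92 and rho = 0.782 (permutation p for r = 0.00239), and within the 10 above it r = 0.873 and rho = 0.806 (permutation p for r = 0.00102). Krt8 with Krt19 gave r = 0.823 and rho = 0.709 below (permutation p for r = 0.00521) and r = 0.95 and rho = 0.927 above (permutation p for r = 4e-05). These 4 permutation p were not adjusted. In lung, Krt8 with Krt19 gave r = 0.764 and rho = 0.803 (permutation p = 9e-05 and 2e-05, adjusted p = 0.000214 and 6.33e-05), 0.872 without the 2 farthest arrays and 0.63 within slides. Krt8 with Krt18 gave r = 0.611 and rho = 0.675 in lung (permutation p = 0.00373 and 0.00134, adjusted p = 0.00644 and 0.00283), with 0.789 and 0.345, and in liver r = 0.571 and rho = 0.65 (permutation p = 0.00848 and 0.00256, adjusted p = 0.0124 and 0.00486), with 0.474 and 0.636. The other liver pairs gave r = 0.0285 (Krt5 with Krt14), -0.475 (Krt5 with Krt15), -0.153 (Krt8 with Krt19) and 0.147 (Krt7 with Krt19). Their permutation p for r was 0.905, 0.0348, 0.52 and 0.536 (adjusted p = 0.905, 0.0441, 0.566 and 0.566). Krt5 with Krt14 in lung gave r = 0.874 and rho = 0.556 (permutation p = 0.0181 and 0.0123, adjusted p = 0.0246 and 0.018). Its r rested on mouse 1 and was 0.0832 without it, with rho = 0.482 (permutation p for r = 0.739). Krt5 with Krt15 in lung gave r = 0.935 and rho = 0.88 (permutation p = 1e-05 each, adjusted p = 3.17e-05 and 3.8e-05), and without mouse 1 r = 0.59 and rho = 0.86 (permutation p for r = 0.00994, adjusted p = 0.0172).

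Lung D0 mouse 1 carried a squamous keratin set of its own. Krt4 measured 6.58 there, Krt13 5.53, Krt78 4.34, Krt15 3.62, Krt5 3.46, Krt14 2.98 and Krt6b 1.95, where the other 19 lungs lay below 1.07 in Krt5 and below -1.05 in Krt13. Krt1 and Krt10 were far lower there than in any forestomach. Krt1 measured -0.03 and was not well above background, and Krt10 measured 0.42, where the 20 forestomachs lay between 7.43 and 9.34 and between 6.32 and 7.92. Krt10 was nevertheless the highest of the 20 lungs, with at most -0.37 in the others, while Krt1 was well above background on 0 of the 20 lung arrays. Lor and Krtdap, further genes of cornified epithelium, measured 6.89 and 5.80 in this array, against at most 1.76 and 0.14 in the other lungs. Of the 10 squamous markers, Ivl, Tgm3 and Trp63 were highest in other lungs (D2 mouse 13, D1 mouse 10 and D0 mouse 2). The rest were highest in this one. Ivl was well above background on 0 of the 20 lungs. Krt7 at 4.16 and Krt19 at 1.58 were both the lowest of the 20 lungs. The skeletal muscle list stood at 4.75 in the same array, and the part of either list in these keratin values was not tested. Krt5 was also above 1 in lung D2 mouse 14 (1.06) and D3 mouse 20 (1.02).

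**Figure D4:**
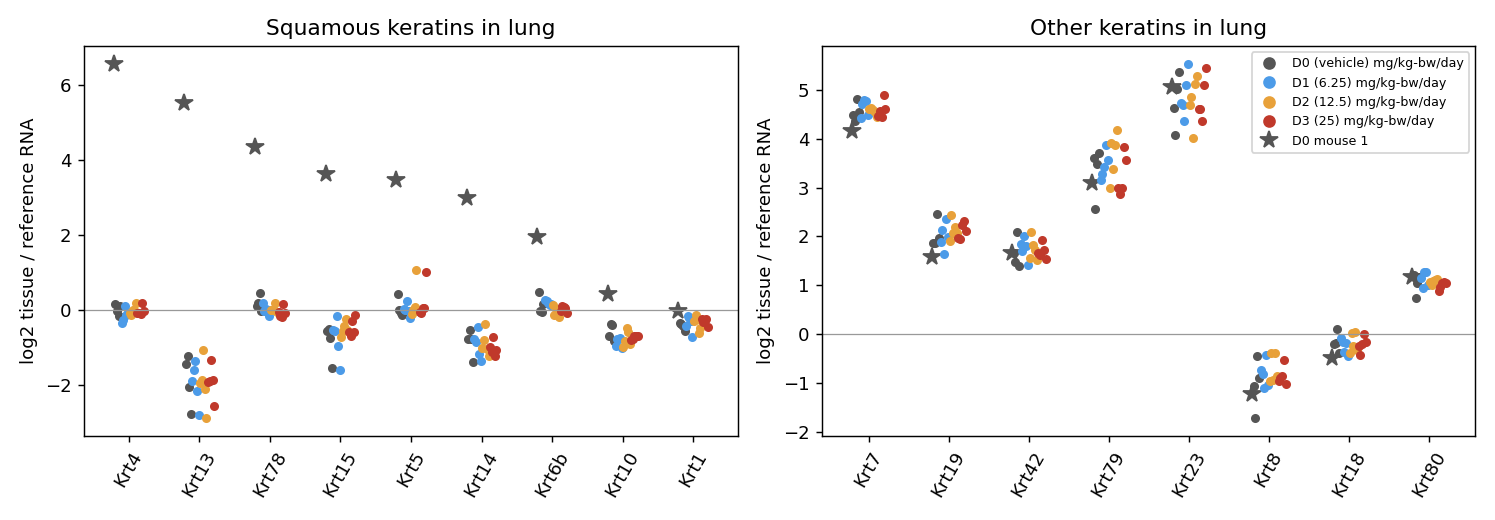
Log2 ratio of tissue over reference RNA in each of the 20 lungs, coloured by dose, for squamous keratins (left) and for the other keratins of the lung (right). The star is D0 mouse 1, which stands above all other lungs in Krt4 (6.58), Krt13 (5.53) and Krt78 (4.34) but not in Krt7 or Krt42.

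The dose comparisons asked whether BghiP changed keratin transcripts, and no keratin was called at any dose in any tissue. In lung 0 of 21 keratins, in liver 0 of 19 and in forestomach 0 of 34 were called at D1, D2 or D3 against D0. The share of all probes called was 0% in each of the 9 comparisons by the limma fit of each tissue. At the same thresholds the authors' own test called genes in each tissue with this compound. The 0% therefore describes this fit. At an unadjusted p of 0.05 or less there were 1, 2 and 1 keratins in lung, 0, 2 and 1 in liver and 0, 1 and 0 in forestomach at D1, D2 and D3, and between 1.51 and 12.2% of all probes. The median keratin change at D3 was -0.04 in lung, -0.06 in liver and 0.11 in forestomach, beside 0.01, -0.000489 and 0.01 for all probes. The difference of the D3 change between tissues was tested as well, and 0 of 35 keratins were called in any of the 3 pairs of tissues (0% of all probes in each), with 1, 2 and 0 at an unadjusted p under 0.05 for lung against liver, lung against forestomach and liver against forestomach. These were Krt78 in both (-1.10 ± 0.52 and -1.27 ± 0.52) and Krt14 against forestomach (-1.03 ± 0.50), each with an adjusted p of 1, and both genes were high in lung D0 mouse 1.

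Named by the lowest unadjusted p at D3, the lung keratins were Krt10 (-0.36 ± 0.17, adjusted p = 0.998), Krt6b (-0.47 ± 0.25, adjusted p = 0.998) and Krt14 (-0.93 ± 0.53, adjusted p = 0.998). All 3 were high in D0 mouse 1, and without it the changes were -0.16 ± 0.11, -0.11 ± 0.10 and -0.16 ± 0.20. The widest lung change was that of Krt13, at -1.52 at D3, and -0.04 ± 0.36 without this mouse. In liver they were Krt222 (-0.20 ± 0.09, adjusted p = 0.395), Krt18 (-0.23 ± 0.12, adjusted p = 0.449) and Krt23 (0.52 ± 0.27, adjusted p = 0.454). Krt23, known from stressed and cholestatic liver, measured 1.91, 0.67, 1.15, 1.49 and 1.15 in D0 livers and 1.67, 2.26, 2.14, 1.08 and 1.82 in D3 livers, and the groups overlapped. Keratins of liver stayed within narrow limits, the largest change at any dose being 0.52.

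Forestomach changes were larger and far less certain. Krt20 was 3.00 ± 1.60 higher at D1 (adjusted p = 0.561) and Krt8 2.57 ± 1.48 higher (adjusted p = 0.592), where D1 held 4 of the 10 mice with high simple keratins and D0 held 2. D1 Krt20 values were -2.38, 4.15, 2.07, 4.45 and 3.54, and overlapped those of D0. At D3, Krt9, Krt86 and Krt84 had the lowest unadjusted p, with an adjusted p of 1 each, and no keratin changed by more than 0.79. The stress keratin Krt6a was 1.25 ± 0.82 higher at D1 and 0.73 ± 0.82 at D3, with an adjusted p of 0.638 and 1. Krt6b ran from 5.13 to 9.04 and Krt17 from 0.72 to 4.99 over the 20 forestomachs, and both were lowest in D3 mouse 18. The SE of the Krt20 change, 1.60, limits what 5 mice against 5 could show.

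**Figure D5:**
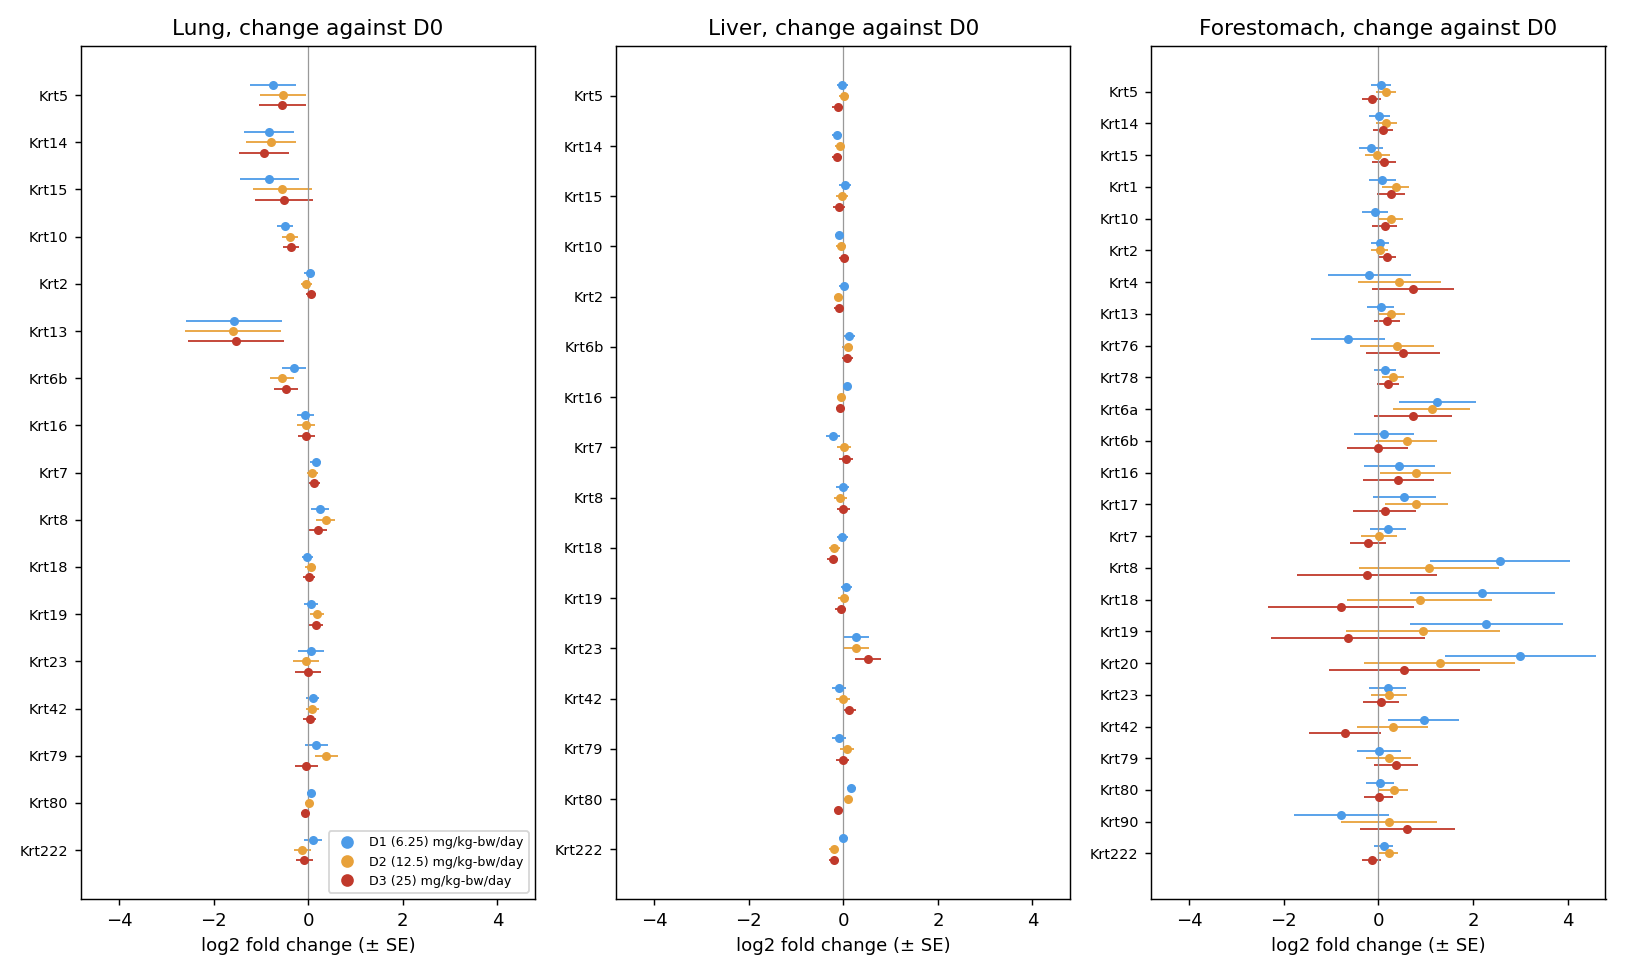
Log2 fold change ± SE of each keratin at D1, D2 and D3 against D0 in lung, liver and forestomach, over 5 mice per group. No keratin was called. The widest intervals are those of Krt8, Krt18, Krt19 and Krt20 in forestomach and of Krt13 in lung.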

How the data were processed

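Total RNA of lung, liver and forestomach from 20 mice (5 per dose, 60 arrays) was hybridised in Cy5 with Universal Mouse Reference RNA in Cy3 on Agilent mouse whole-genome arrays of 62976 spots, without dye swaps. The authors extracted spot intensities with Feature Extraction and applied LOWESS to median signals without background subtraction, and the deposited scanner tables hold intensity per spot while the deposited value table holds log2 ratios. The authors tested doses with MAANOVA and residual shuffling.

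From the deposited intensities, control spots (3671) and outlier-flagged values (0.46%) were removed, median signals were loess-normalised within each array without background subtraction, and spots of a probe were averaged (55681 probes, limma 3.58.1, R 4.3.3). The results correlated with the deposited log2 ratios at r = 0.992 to 0.999 per array, and 0 values were saturated. With 5 arrays in a group, precision is limited by their number. Probes well above background in Cy5 on 5 or more of the 20 arrays of a tissue were tested. Tissue and interaction contrasts came from 1 limma fit of 12 groups on 60 arrays (33255 probes), and dose contrasts from 1 fit per tissue (31022, 25893 and 25070 probes in lung, liver and forestomach). A call was an adjusted p of 0.05 or less (Benjamini-Hochberg over all probes) and 1.5-fold or more. The scripts were tested on simulated data. Genes were named through the RefSeq accession of each probe (26413 probes with a symbol), and 11 keratins had a second probe. Promoters were read from RefSeq's table for GRCm38.p6, and no coordinate of the array design was used. Figures were drawn with matplotlib 3.10.9 in Python 3.11.15.

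The keratins named were those of each role (basal, upper layers, mouth and gullet, stress, simple, and Krt23, Krt24, Krt42, Krt79 and Krt80), the 3 called keratins with the largest rise and fall between tissues, hair keratins measured in a tissue, and, as none was called by dose, the 3 with the lowest unadjusted p per tissue at D3. The members and all gene lists were chosen with earlier results of these data known. The tissues of a mouse share an animal, which the labels' animal numbers give. The deviations of a mouse's arrays from their group means correlated weakly between tissues (median r of 0.0538 for lung and liver, 0.209 for lung and forestomach, -0.00131 for liver and forestomach). Alternatives were normexp (offset 50), the scanner's processed signals, the deposited log2 ratios, Aquantile scaling, other filters, the mean of all probes, a mouse or slide block, the 2 groups alone, the treated mice and leaving out each mouse.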

Additional observations from a re-analysis of the deposited data

Results flagged for a closer look

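Within groups of 5 mice, 260 sets of values of 30 keratins were searched for a lowest or highest value that stands far from the rest, and 20 were found, where chance gives about 1 in 20 sets. Of these, 5 were lung D0 mouse 1, with Krt5 at 3.46, Krt14 at 2.98, Krt15 at 3.62, Krt13 at 5.53 and Krt6b at 1.95 on the log2 ratio scale, where the next highest D0 lung was at 0.43, -0.528, -0.50, -1.23 and 0.467. Krt5 also stood high in lung D2 mouse 14 (1.06) and lung D3 mouse 20 (1.02).

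In forestomach, D1 mouse 10 stood apart in Krt1 (9.29), Krt84 (3.53) and Krt222 (-0.189), and D2 mouse 15 in Krt14 (4.72) and Krt13 (6.31). Krt6b was low in D2 mouse 13 (7.12), and Krt18 was low in D1 mouse 6 (-4.27), the only D1 mouse outside the 10 with high simple keratins. The remaining values were Krt10 in liver D3 mouse 20 (-0.352), Krt2 in liver D2 mouse 15 (0.667), Krt6b in liver D2 mouse 12 (1.12) and D3 mouse 17 (1.11), Krt18 in liver D2 mouse 11 (0.692) and Krt86 in lung D2 mouse 13 (0.24). The cause of these values was not tested.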

How the results depend on the processing

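No named keratin reversed a called tissue difference under another signal, scaling, block or choice of groups in the fit. In the D3 mice Krt78, called higher in lung than in liver in D0 mice at 1.03, was at -0.07 (adjusted p = 0.886). The counts called by dose and by the difference of dose changes between tissues were 0 under every alternative that was run. The count of keratins called between lung and liver was 16 with the scanner's processed signals in place of 9, and that between forestomach and lung was 15 of 24 tested in place of 23 of 35 when a probe had to be above background on all 20 arrays of a tissue, where the lost calls were untested. Leaving out 1 mouse gave 25 to 28 calls between forestomach and liver, 22 to 23 between forestomach and lung and 7 to 10 between lung and liver. With the mouse as a replicate block the counts were 27, 24 and 9, the only call to change being Krt79 in forestomach minus lung (-0.69, adjusted p = 0.0374 against 0.0765). Slide as a block also gave 24. Among single calls, Krt6a was lost without mouse 4 and, against lung, without mouse 2, and the call of Krt8 between forestomach and liver appeared without mouse 2 (-2.37). With the 2 groups fitted alone, Krt18 (adjusted p = 0.0655) and Krt20 (0.094 and 0.0801) were not called. Of 19 correlations, Krt5 with Krt15 in liver turned from -0.475 to 0.0865 with processed signals, and Krt1 with Krt10 in forestomach fell to 0.226. With slide means removed, 6 moved, to 0.345 (Krt8 with Krt18) and 0.222 (Krt7 with Krt19) in lung, 0.326 (Krt5 with Krt14) and -0.187 (Krt5 with Krt15) in liver, and 0.434 and -0.44 for the same pairs in forestomach. Without lung mouse 1, Krt5 with Krt14 was 0.0832 and Krt7 with Krt19 0.439. The deposited ratios gave 0.406 for Krt8 with Krt18 in liver, 0.479 for Krt5 with Krt15 in forestomach and -0.434 for that pair in liver, normexp gave -0.375 for the last, and processed signals 0.631 for Krt5 with Krt14 in liver. The cause of these shifts was not tested. The 10 keratins above background on no array could not be assessed, and a signal near background bounds a fold only from below.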
